A study of Homo sapiens with 6 samples.

Results

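The genes described here are the 53 genes that license origins, open and copy the replication fork, supply deoxynucleotides and guard the fork, chosen by symbol from the 20042 genes of the count table. All 53 had an entry and all 53 passed the filter on low counts, so that none was lost before the test. The samples were 6 RNA preparations from MDA-MB-231, a widely used line of human breast cancer cells. In 3 of them (siCTRL, labelled WT) the cells had received a control siRNA, and in the other 3 (siRNA-1, labelled ERBBride knock down) an siRNA directed at ERBBride. Both groups were transfected, while the siRNA dose and the time to harvest are not stated in the labels. No row of the table was named ERBBride, so its own level was not analysed here. Only siRNA-1 was directed at ERBBride in these samples, so loss of ERBBride and other effects of that siRNA cannot be told apart.

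Replication of the genome is prepared in G1 phase, when the origin recognition complex (ORC), CDC6 and CDT1 load rings of MCM2 to MCM7 onto DNA, a step called licensing. In S phase CDC45 and the GINS complex join each ring to form the active helicase, and polymerase alpha and primase lay down primers. Polymerases epsilon and delta extend these primers with the sliding clamp PCNA, and nucleases and a ligase join the lagging strand fragments. Many of these genes are transcribed as cells approach S phase under E2F transcription factors, and tumour cells in culture usually express them strongly.

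Levels below are counts-per-million (CPM) after TMM scaling of the library sizes, listed for replicates 1, 2 and 3 of each group. A positive fold change means a higher level in siRNA-1 cultures. A gene rose or fell where the edgeR quasi-likelihood test gave an adjusted p under 0.05 over the 12440 genes tested. The labels call the cultures biological replicates without saying how they were separated, so that p-values measure the spread between these samples. In bulk RNA, fewer cells in S phase and less RNA per such cell cannot be told apart.

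Of the 53 replication genes, 12 rose, 21 fell and 20 did not pass the test. The changed share was 62.3%, against 62.5% of all genes tested, so the number of changed members was that of the background. Their directions were less even than the background: 39.6% of members fell against 31.0% of all genes, and 22.6% rose against 31.5%. The median log2 fold change was -0.09 for the members and 0.01 for all genes tested, with members between -1.23 (RFC1) and 0.54 (ORC6). Changes were small: the median absolute log2 fold change was 0.25 in the members and 0.35 in all genes. RFC1 and POLA1 were the 2 of 53 members that fell at least 2-fold, against 1012 of 12440 genes tested (8.14%). Of the members 0 rose 2-fold, against 1.97% of all genes. In 37 members (69.8%) the groups did not overlap, against 67.6% of all genes. The siRNA-1 libraries lay above all controls in 16 of the 53 members, against 34.6% of all genes tested. They lay below all controls in 21 of the 53, against 33.0% of all genes tested. The summed level of the 53 genes was 4448 to 4647 CPM in the controls and 4103 to 4243 CPM in siRNA-1 cultures, ranges that did not overlap. The sums over all genes tested did not overlap either, at 994323 to 1029293 CPM and 979751 to 993954 CPM. Abundant genes weigh most in such a sum: MCM3 alone went from a mean of 408 to 262 CPM, while MCM7 went from 306 to 369 CPM.

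**Figure D1:**
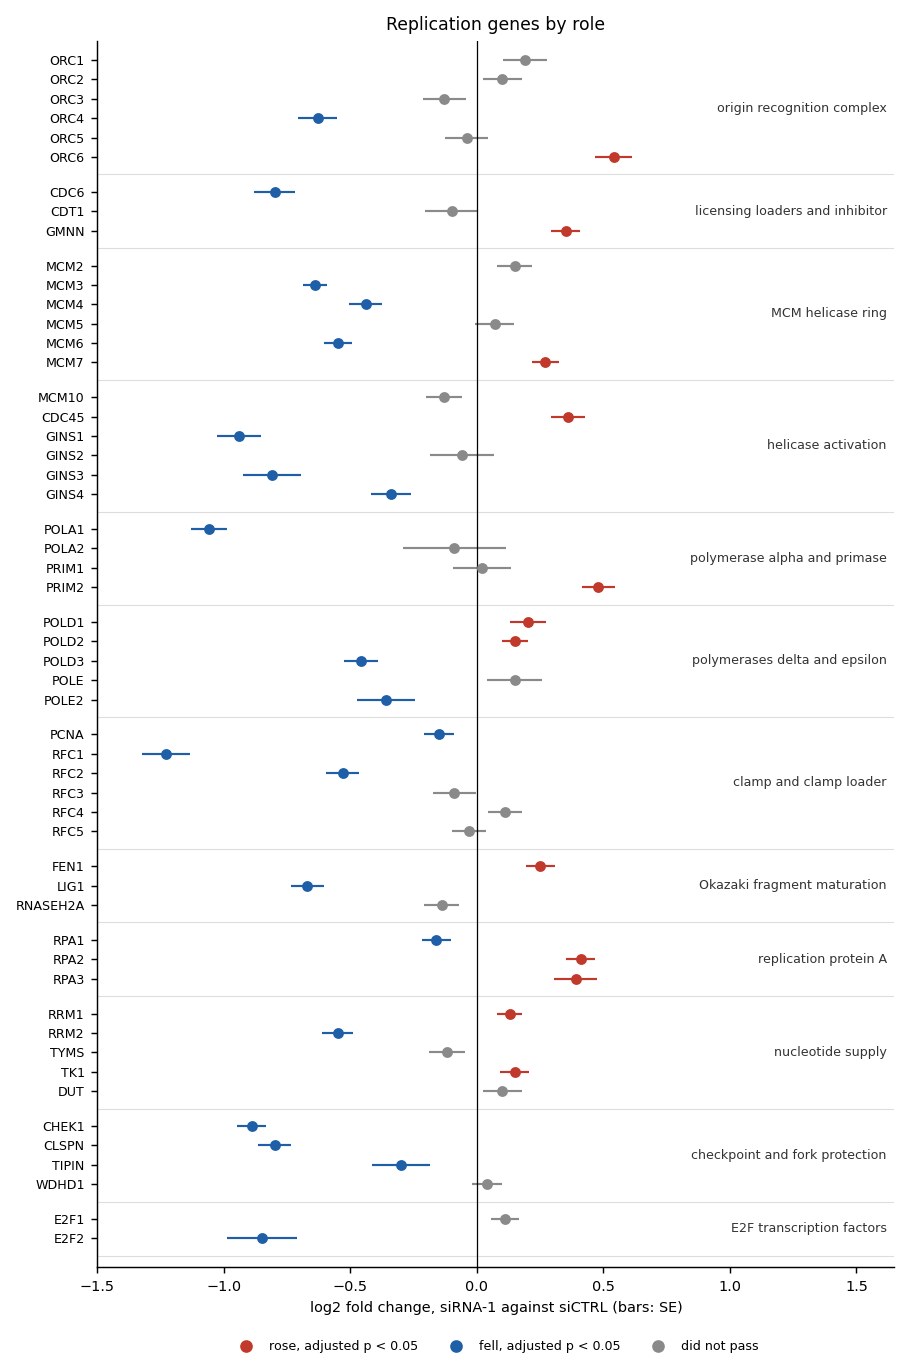
Log2 fold change of each of the 53 replication genes (x axis, siRNA-1 against siCTRL) with its SE (bars), grouped by role, coloured by the edgeR call at an adjusted p of 0.05. Most roles hold members on both sides of 0, from -1.23 for RFC1 to 0.54 for ORC6.

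The sequencing depth was 12813706 to 15014434 counts per library, and 3 counts, the floor used here, were at most 0.233 CPM. The cell line was checked by genes it is known to express and to lack. VIM, CD44, AXL and CAV1, which the line expresses, summed to 5880 to 6195 CPM in the controls and 3348 to 3478 CPM in siRNA-1 cultures, and all 4 fell (1.58-fold to 2.24-fold). Of 4 genes it is known to lack, CDKN2A and PGR had 0 counts in every library and ESR1 at most 0.204 CPM. CDH1, the remaining gene, was above the floor in every library, at 1.98, 3.11 and 1.64 CPM in the controls and 0.559, 0.397 and 0.545 CPM in siRNA-1 cultures, and fell 4.41-fold (adjusted p = 0.00027, edgeR). Among markers of other cells, CD3E and HBB (blood), CDH5 (endothelium) and DCN (fibroblasts) had 0 counts. Others were detected. The fibroblast gene COL1A1 rose 3.46-fold, from a mean of 4.95 to 17.2 CPM (adjusted p = 8.1e-06, edgeR), while COL1A2 did not pass. The endothelial genes PECAM1 and KDR fell 1.81-fold and 1.67-fold (adjusted p = 0.00067 and 0.00189, edgeR). The endothelial list (4 genes) summed to 15.6 to 17.6 CPM in controls and 8.25 to 10.8 in siRNA-1 cultures, the fibroblast list (4 genes) to 11.4 to 13.4 and 22.2 to 24.8, and the blood list (5 genes) to 127 to 176 and 175 to 180, nearly all of it from CD68. Their part in the results was not tested.

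The library siCTRL 2 stood apart from the other controls along the second principal component (8.43% of the variance). Of the 53 members, 30 were lower in siCTRL 2 than in both other controls and 12 were higher, with a median log2 difference of -0.07, while the same difference was 0.00 for all genes tested. All 6 MCM ring genes were lowest in siCTRL 2 among the controls. Of 24 genes of G2 phase and mitosis, 23 were highest in siCTRL 2 among the controls, with a median log2 difference of 0.32. Without siCTRL 2, 13 members rose and 22 fell, against 34.5% and 34.3% of all genes, with 68.7% of all genes changed in that fit. All 33 members that changed with every library in the fit also changed without siCTRL 2, and POLE and RNASEH2A joined them.

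**Figure D2:**
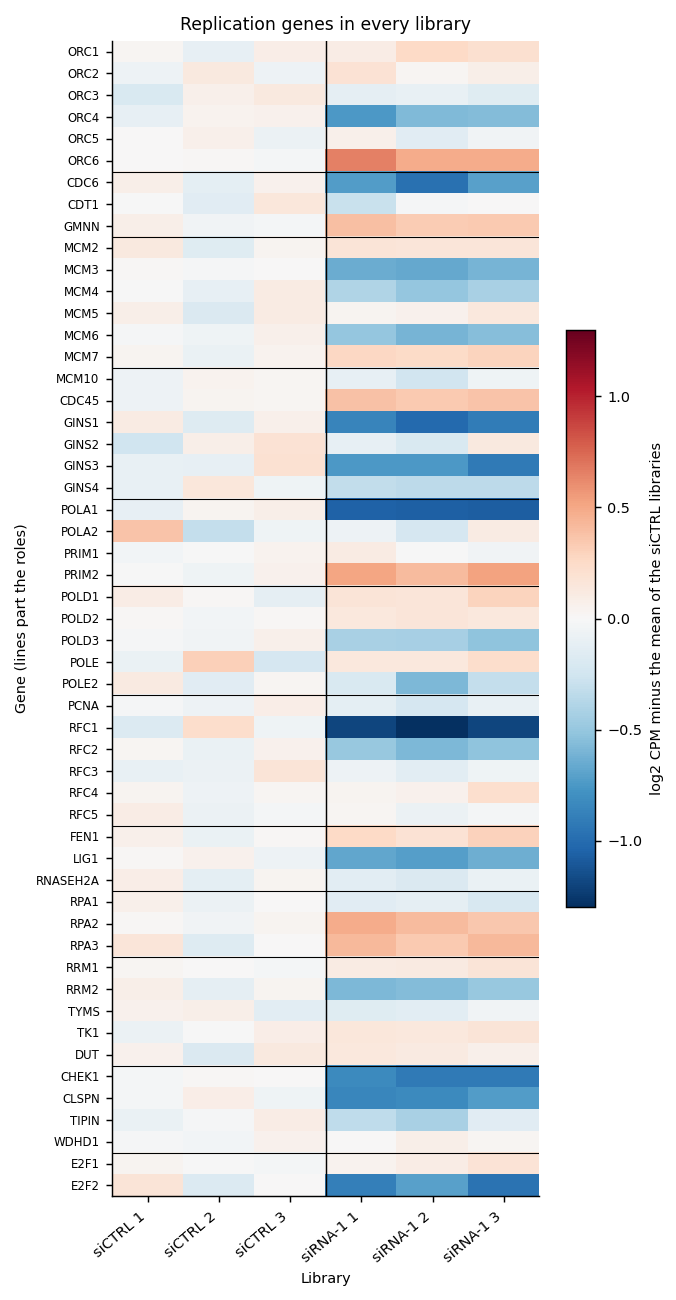
Colours give log2 CPM minus the mean of the siCTRL libraries for each of the 53 genes (rows, roles parted by lines) in each of the 6 libraries (columns). RFC1 and POLA1 are the darkest blue rows in the 3 siRNA-1 columns and ORC6 and PRIM2 the strongest red, while POLE is highest in siCTRL 2.

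ORC, the 6-subunit complex that marks origins, moved at 2 of its 6 genes, in opposite directions, where 62.5% of all genes tested changed. ORC4, a subunit of the ring that binds origin DNA, stood at 47.1, 52.4 and 52.7 CPM in the controls and at 30.2, 34.1 and 34.3 CPM in siRNA-1 cultures. It fell 1.54-fold (log2 fold change -0.63, SE 0.078, adjusted p = 2.6e-05), and the groups did not overlap. ORC6, the smallest and most loosely attached subunit, stood at 33.1, 33.2 and 32.4 CPM and then at 51.8, 46.0 and 46.1 CPM. It rose 1.46-fold (log2 fold change 0.54, SE 0.073, adjusted p = 4.4e-05), again without overlap. ORC1, the ATPase subunit that is degraded after licensing, did not pass (0.19, adjusted p = 0.0749), although its siRNA-1 libraries all lay above the controls, and it passed without scaling beyond library size (0.23, adjusted p = 0.0328). The log2 fold changes of ORC2 (0.10), ORC3 (-0.13) and ORC5 (-0.04) did not pass either. ORC3 passed only without siCTRL 1 (-0.23, adjusted p = 0.0213), among the single libraries left out.

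The genes of the licensing loaders and their inhibitor moved apart. CDC6, the ATPase that brings the MCM ring to ORC, stood at 126, 109 and 124 CPM in the controls and at 72.2, 60.8 and 73.4 CPM in siRNA-1 cultures. It fell 1.74-fold (log2 fold change -0.80, SE 0.082, adjusted p = 5.3e-06). GMNN encodes geminin, which binds CDT1 and prevents a second round of loading. GMNN stood at 81.0, 74.5 and 75.9 CPM and then at 101, 97.0 and 97.9 CPM, a rise of 1.28-fold (0.35, SE 0.058, adjusted p = 0.00021). In neither gene did the groups overlap. CDT1, the partner of CDC6 in loading, stood at 27.4, 24.8 and 30.3 CPM and at 22.4, 27.1 and 27.5 CPM. Those ranges overlapped and CDT1 did not pass (-0.10, SE 0.104, adjusted p = 0.422). The ratio of CDC6 to GMNN counts, which does not depend on library scaling, was 1.46 to 1.63 in the controls and 0.627 to 0.749 in siRNA-1 libraries. In GENCODE 29 (GRCh38) CDC6 occupies chr17:40287633-40304657 and GMNN chr6:24774931-24786099, both on the plus strand.

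The 6 genes of the MCM ring, whose proteins assemble in equal number, did not move together: MCM3, MCM4 and MCM6 fell, MCM7 rose, and MCM2 and MCM5 did not pass. MCM3 stood at 411, 405 and 408 CPM in the controls and at 261, 258 and 268 CPM in siRNA-1 cultures, a fall of 1.55-fold (log2 fold change -0.64, SE 0.048, adjusted p = 4.3e-07). MCM6 stood at 156, 152 and 165 CPM and then at 111, 104 and 107 CPM, a fall of 1.47-fold (-0.55, SE 0.056, adjusted p = 5e-06). MCM7 stood at 314, 288 and 315 CPM and then at 368, 364 and 374 CPM, a rise of 1.21-fold (0.27, SE 0.053, adjusted p = 0.00085). These 3 genes had no overlap between groups, and MCM4 fell too (-0.44, adjusted p = 9.7e-05), likewise without overlap. MCM2 stood at 134, 110 and 126 CPM and then at 138, 137 and 137 CPM, just above every control (0.15, SE 0.069, adjusted p = 0.0742). It passed without siCTRL 1 (0.20, adjusted p = 0.0378) and without scaling beyond library size (adjusted p = 0.0241). Without siCTRL 2 its log2 fold change was 0.06 (adjusted p = 0.247), and an antisense gene overlaps 22.7% of its exonic bases. MCM5 stood at 102, 84.5 and 104 CPM and at 98.8, 100 and 106 CPM (0.07, adjusted p = 0.474). Per kilobase of exon, MCM3 was the highest of the ring in the controls (112 CPM) ahead of MCM7 (69.7), and in siRNA-1 cultures that order was turned, at 71.9 and 84.1 CPM. The ratio of MCM3 to MCM7 counts was 1.29 to 1.40 in the controls and 0.708 to 0.715 in siRNA-1 libraries.

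Promoters of 4 ring genes are shown because these genes moved in different directions while all 4 carry a motif of the E2F family. RefSeq promoter windows (GRCh38.p14) run from 250 bases before the annotated start to 50 bases after it, in the direction of the gene. Capitals mark matches to the E2F motif, searched on both strands in the 4 exact forms TTTCCCGC, TTTCGCGC, TTTGCCGC and TTTGGCGC. MCM2 (did not pass) lies on the plus strand of chr3:127598161-127598460, MCM3 (fell) on the minus strand of chr6:52284693-52284992, MCM6 (fell) on the minus strand of chr2:135876394-135876693 and MCM7 (rose) on the minus strand of chr7:100101348-100101647.
MCM2: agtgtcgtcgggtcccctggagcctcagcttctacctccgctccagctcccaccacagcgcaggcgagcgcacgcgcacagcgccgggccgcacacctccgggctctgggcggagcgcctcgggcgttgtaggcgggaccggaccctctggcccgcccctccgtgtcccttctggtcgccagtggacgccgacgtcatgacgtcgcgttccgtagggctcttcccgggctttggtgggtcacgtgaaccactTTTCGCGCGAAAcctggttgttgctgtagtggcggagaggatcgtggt
MCM3: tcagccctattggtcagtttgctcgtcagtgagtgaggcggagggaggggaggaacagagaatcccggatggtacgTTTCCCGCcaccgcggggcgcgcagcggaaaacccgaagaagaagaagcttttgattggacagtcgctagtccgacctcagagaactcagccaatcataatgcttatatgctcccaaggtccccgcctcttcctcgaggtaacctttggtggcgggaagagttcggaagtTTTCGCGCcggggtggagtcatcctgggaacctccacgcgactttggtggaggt
MCM6: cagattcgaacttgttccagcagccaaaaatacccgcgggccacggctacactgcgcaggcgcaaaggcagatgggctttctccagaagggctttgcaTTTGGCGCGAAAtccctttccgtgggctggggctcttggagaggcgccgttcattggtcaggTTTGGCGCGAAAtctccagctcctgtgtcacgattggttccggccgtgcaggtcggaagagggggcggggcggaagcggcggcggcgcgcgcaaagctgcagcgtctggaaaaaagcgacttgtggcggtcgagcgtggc
MCM7: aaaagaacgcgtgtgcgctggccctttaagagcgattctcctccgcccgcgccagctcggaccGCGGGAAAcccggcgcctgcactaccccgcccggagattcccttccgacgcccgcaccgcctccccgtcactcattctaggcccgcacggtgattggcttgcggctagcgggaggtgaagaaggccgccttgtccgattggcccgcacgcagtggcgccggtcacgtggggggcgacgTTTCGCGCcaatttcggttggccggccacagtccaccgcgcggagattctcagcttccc
In MCM2 and MCM6 a match on one strand overlaps a match on the other, giving the runs TTTCGCGCGAAA and TTTGGCGCGAAA, and MCM6 holds its run at both capital stretches. The match nearest the start begins 3 bases into the transcript in MCM2, 4 bases before the start in MCM3 and 9 before it in MCM7, and in MCM6 it begins 86 bases before the start. A match to these letters is a description of the window and not evidence of binding.

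The genes that turn the loaded ring into a running helicase were lower at 3 of 6 and higher at 1 of 6. Of all genes tested 31.0% fell and 31.5% rose. GINS1, a subunit of the GINS complex, stood at 50.4, 41.7 and 49.1 CPM in the controls and at 25.8, 23.2 and 24.9 CPM in siRNA-1 cultures. It fell 1.91-fold (log2 fold change -0.94, SE 0.088, adjusted p = 2.7e-06). GINS3, another subunit of that complex, stood at 18.3, 18.1 and 22.4 CPM and then at 11.6, 11.6 and 10.3 CPM, a fall of 1.75-fold (-0.81, SE 0.114, adjusted p = 6.7e-05). Every siRNA-1 library was below every control in both. GINS4 fell less (-0.34, adjusted p = 0.00314), and antisense genes overlap 21.2% of the exonic bases of GINS4 and 10.9% of those of GINS3. GINS2, which completes the complex, did not pass (-0.06, adjusted p = 0.689). CDC45, the partner of GINS in the active helicase, rose from 34.7 ± 1.35 to 44.5 ± 0.706 CPM (SD, n = 3, log2 fold change 0.36, adjusted p = 0.00057, edgeR). MCM10, which helps to start unwinding, did not pass (-0.13, adjusted p = 0.124).

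Within the primer-making complex of polymerase alpha and primase, the catalytic polymerase subunit and a primase subunit moved apart. POLA1, the catalytic subunit, stood at 55.1, 60.6 and 62.3 CPM in the controls and at 28.5, 28.4 and 28.2 CPM in siRNA-1 cultures. It fell 2.09-fold (log2 fold change -1.06, SE 0.071, adjusted p = 1.7e-07). PRIM2, the large primase subunit, stood at 47.8, 46.2 and 49.8 CPM and then at 68.5, 63.7 and 68.8 CPM. It rose 1.40-fold (0.48, SE 0.064, adjusted p = 4e-05), and neither gene had overlapping groups. The ratio of POLA1 to PRIM2 counts was 1.15 to 1.31 in the controls and 0.410 to 0.446 in siRNA-1 libraries. PRIM1, the catalytic primase subunit, lay at 9.06 to 10.1 CPM over all libraries and did not pass (0.02, SE 0.114, adjusted p = 0.896). A same-strand gene shares 14.9% of the exonic bases of PRIM1. POLA2, the accessory subunit, lay at 3.42 to 5.47 CPM, the lowest of the 53 genes per kilobase of exon in the controls (0.756 CPM), and did not pass (-0.09, SE 0.203, adjusted p = 0.712). An overlapping gene on the same strand shares 35.1% of the exonic bases of POLA2, so its count carries that uncertainty. POLA1 occupies chrX:24693919-24996986 on the plus strand.

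**Figure D3:**
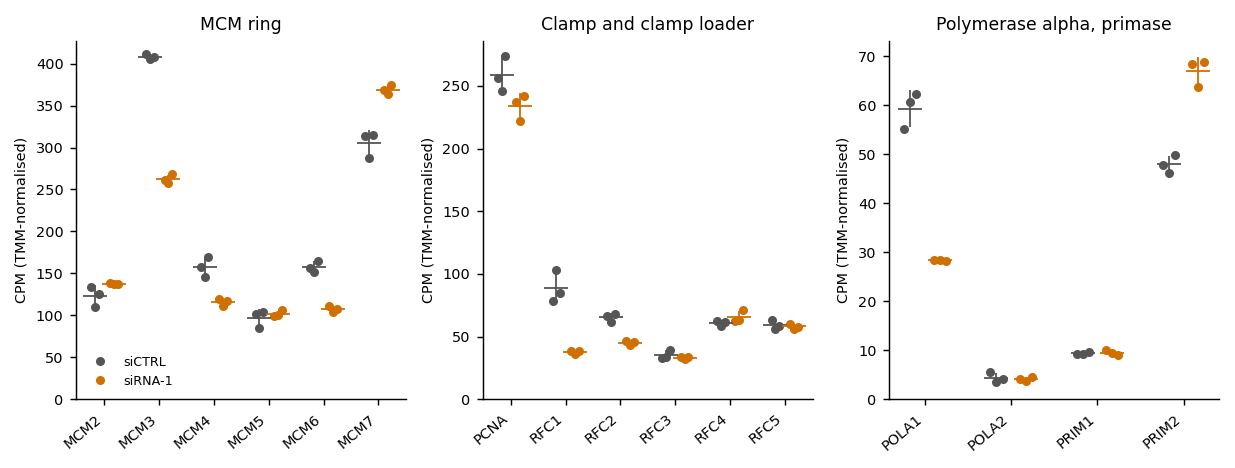
CPM of each library (points) with the group mean and SD (n = 3, line and bar) for the MCM ring, the clamp with its loader, and polymerase alpha with primase, on axes that start at 0. MCM3 falls from 408 ± 2.74 to 262 ± 4.93 CPM while MCM7 rises from 306 ± 15.1 to 369 ± 5.12 CPM, and RFC1 and POLA1 drop below all their controls.

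Genes of the main copying polymerases also divided. POLD3, an accessory subunit of polymerase delta, stood at 52.6, 51.6 and 55.8 CPM in the controls and at 39.7, 39.6 and 37.1 CPM in siRNA-1 cultures, a fall of 1.37-fold (log2 fold change -0.46, SE 0.067, adjusted p = 8.7e-05). POLE2, the second subunit of polymerase epsilon, stood at 23.4, 19.6 and 22.1 CPM and then at 18.9, 14.4 and 17.5 CPM, a fall of 1.28-fold (-0.36, SE 0.114, adjusted p = 0.0159). The groups stayed apart in both, but POLE2 no longer passed without siCTRL 1 (adjusted p = 0.0635) or without siRNA-1 replicate 2 (0.0864). The polymerase delta genes POLD1, its catalytic subunit (0.20, adjusted p = 0.0276), and POLD2 (0.15, adjusted p = 0.0228) rose slightly. POLD1 was lost without siCTRL 3 (adjusted p = 0.130) or siRNA-1 replicate 3 (0.121), and POLD2 without siCTRL 1 or any 1 siRNA-1 library (0.0528 to 0.0724). POLE, the catalytic subunit of polymerase epsilon, stood at 69.3, 91.3 and 63.3 CPM in the controls and at 81.2, 80.9 and 86.3 CPM in siRNA-1 cultures. The high value of siCTRL 2 made these groups overlap, and POLE did not pass (0.15, adjusted p = 0.245) but rose without that library (0.31, adjusted p = 2.9e-06).

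The sliding clamp changed little and its loader unevenly. RFC1, the large subunit of the clamp loader, stood at 78.0, 103 and 85.0 CPM in the controls and at 38.4, 36.0 and 38.4 CPM in siRNA-1 cultures. It fell 2.35-fold (log2 fold change -1.23, SE 0.095, adjusted p = 4.9e-07), the largest fall of the 53. RFC2, a small loader subunit, stood at 66.7, 61.4 and 68.1 CPM and then at 46.4, 43.6 and 45.5 CPM, a fall of 1.45-fold (-0.53, SE 0.065, adjusted p = 2.2e-05). Neither had overlapping groups, whereas the other small subunits RFC3 (-0.09), RFC4 (0.11) and RFC5 (-0.03) did not pass, with adjusted p of 0.376, 0.192 and 0.754. The ratio of RFC1 to RFC4 counts was 1.25 to 1.77 in the controls and 0.542 to 0.615 in siRNA-1 libraries. PCNA stood at 256, 246 and 274 CPM and then at 237, 222 and 242 CPM, with all siRNA-1 libraries below the controls. Its fall of 1.11-fold passed narrowly (-0.15, SE 0.059, adjusted p = 0.0468), and the call was lost when any 1 library other than siCTRL 2 was left out (0.0656 to 0.209). Per kilobase of exon PCNA was the most abundant of the 53 transcripts, at 176 CPM in the controls and 159 CPM in siRNA-1 cultures. RFC1 occupies chr4:39287456-39366375 on the minus strand.

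The enzymes that process lagging strand fragments and the protein that coats single strands gave mixed results. LIG1, the ligase that seals the fragments, stood at 55.8, 57.6 and 52.9 CPM in the controls and at 34.6, 33.8 and 35.8 CPM in siRNA-1 cultures, a fall of 1.59-fold (log2 fold change -0.67, SE 0.066, adjusted p = 3.8e-06). FEN1, the nuclease that trims their flaps, stood at 162, 146 and 157 CPM and then at 185, 177 and 190 CPM, a rise of 1.19-fold (0.25, SE 0.058, adjusted p = 0.00262). The groups of both genes were apart. RNASEH2A, the catalytic subunit of a nuclease that removes RNA from DNA, did not pass (-0.14, adjusted p = 0.0913). Without siCTRL 2 it fell (-0.22, adjusted p = 0.00052), and a neighbouring gene shares 30.8% of its exonic bases. In replication protein A, RPA2 stood at 83.3, 79.8 and 84.6 CPM and then at 115, 110 and 105 CPM (0.41, SE 0.058, adjusted p = 6.8e-05). RPA3 stood at 39.6, 31.7 and 35.7 CPM and then at 47.6, 45.0 and 47.6 CPM (0.39, SE 0.084, adjusted p = 0.00164). Both of these smaller subunits rose without overlap, while RPA1, the large DNA-binding subunit, fell slightly (-0.16, adjusted p = 0.0270) and was lost when any 1 library other than siCTRL 2 was left out (0.0517 to 0.130).

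Nucleotide supply genes changed modestly apart from RRM2, the small subunit of ribonucleotide reductase, which makes deoxynucleotides. RRM2 stood at 166, 146 and 162 CPM in the controls and at 105, 107 and 112 CPM in siRNA-1 cultures. It fell 1.46-fold (log2 fold change -0.55, SE 0.062, adjusted p = 1.2e-05), and a same-strand neighbour shares 20.2% of its exonic bases. RRM1, the large subunit, rose slightly (0.13, SE 0.050, adjusted p = 0.0419), and the ratio of RRM2 to RRM1 counts was 0.731 to 0.833 in the controls and 0.490 to 0.503 in siRNA-1 libraries. TK1, which salvages thymidine, stood at 109, 115 and 122 CPM and then at 128, 127 and 129 CPM (0.15, SE 0.057, adjusted p = 0.0395). The groups were apart in all 3 genes. The calls of the small rises were fragile: RRM1 was lost when any 1 library other than siCTRL 2 was left out (0.0724 to 0.138), and TK1 without siCTRL 1 or any 1 siRNA-1 library (0.0777 to 0.218). Without siCTRL 1 the log2 fold change of TK1 was 0.10. TYMS, which makes thymidylate, stood at 62.5, 63.5 and 54.9 CPM and at 54.1, 54.8 and 58.1 CPM, ranges that overlapped (-0.12, SE 0.071, adjusted p = 0.176). TYMS passed without siCTRL 3 (-0.18, adjusted p = 0.0446), and ENOSF1 on the opposite strand overlaps 39.1% of its exonic bases. DUT, which clears dUTP, did not pass (0.10, adjusted p = 0.282), and an antisense gene overlaps 14.5% of its exonic bases.

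Of the 4 genes of the replication checkpoint and fork protection, 3 fell and 0 rose, where 31.0% of all genes tested fell and 31.5% rose. CHEK1, the checkpoint kinase activated when forks stall, stood at 91.6, 94.4 and 93.3 CPM in the controls and at 52.6, 49.2 and 49.4 CPM in siRNA-1 cultures, a fall of 1.85-fold (log2 fold change -0.89, SE 0.058, adjusted p = 1.5e-07). CLSPN encodes claspin, the adaptor through which ATR activates that kinase. CLSPN stood at 82.2, 88.8 and 80.6 CPM and then at 46.5, 47.2 and 50.5 CPM, a fall of 1.75-fold (-0.80, SE 0.065, adjusted p = 7.8e-07). The gap between groups exceeded the range within either group in both genes. TIPIN, a fork protection factor, fell from 12.7 ± 0.793 to 10.4 ± 1.04 CPM (SD, n = 3, log2 fold change -0.30, adjusted p = 0.0414, edgeR). TIPIN was lost without siCTRL 3, siRNA-1 replicate 1 or siRNA-1 replicate 2 (adjusted p from 0.116 to 0.162), and a processed pseudogene shares 21% of its exonic bases. WDHD1, which ties polymerase alpha to the helicase, did not pass (0.04, adjusted p = 0.598). Of the E2F activators, E2F2 stood at 13.1, 10.3 and 11.7 CPM and then at 6.29, 7.15 and 6.00 CPM, a fall of 1.81-fold (-0.85, SE 0.137, adjusted p = 0.00018). E2F1 stood at 123, 120 and 118 CPM and then at 124, 129 and 136 CPM, slightly above every control (0.11, SE 0.056, adjusted p = 0.122), and it passed without scaling beyond library size (adjusted p = 0.0471).

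Sequence around the start of these genes was compared with the direction of change. A promoter window was listed for 47 of the 53 members, and 21 of the 47 (44.7%) held the E2F motif, against 3.33% of 27305 promoters of the same length and 5.47% of those of the 10136 tested genes with a window. Among members, the motif was present in 11 of 18 that fell (61.1%), in 9 of 19 that did not pass (47.4%) and in 1 of 10 that rose, which was MCM7. Over all genes tested the shares were 5.50%, 5.80% and 5.05%. The median log2 fold change was -0.15 for the 21 members with the motif and 0.07 for the 26 without it, against -0.01 and 0.01 over all genes tested. Only exact matches to the forms listed above were counted, in a single window per gene. Sequences that differ from those forms at any base, and other starts of a gene, were not searched. A window without a match may therefore still hold a related sequence. These counts were not tested, and the members were selected as replication genes, many of which are known E2F targets.

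The sequence of 7 bases GCTCACT, which was picked earlier in these data because it was frequent in 3′ untranslated regions (UTRs) of genes that fell, was also looked up in the members. That choice built in a higher share among genes that fell, so the shares below cannot test a link with direction. Matches are shown here for members that fell. Each line gives 23 bases of the UTR of a GENCODE 29 transcript with the match in capitals.
ORC4: tttgaagaGCTCACTtcaaccta
CDC6: cgttctctGCTCACTacagcacc
GINS1: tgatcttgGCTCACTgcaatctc
RFC1: ttaaaaaaGCTCACTgtattcct
RRM2: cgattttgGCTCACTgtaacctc
TIPIN: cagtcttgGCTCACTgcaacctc
E2F2, match nearest the stop codon: ccctcagaGCTCACTcagacccc
E2F2, second match: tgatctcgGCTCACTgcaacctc
With GINS4, a match was present in 8 of the 21 members that fell (38.1%), in 5 of the 20 that did not pass and in 0 of the 12 that rose. Over tested genes with a 3′ UTR of at least 50 bases, the shares were 31.1%, 18.3% and 12.8%. The length of the UTR moved with the match: its median was 2014 bases in the 13 members with a match and 687.5 bases in the other 40, and 3117 and 1120 bases over all genes tested. The part of UTR length in these shares was not tested. The 23-base stretches of GINS1, RRM2, TIPIN and the second E2F2 match were identical to that of another member at 21 or 22 bases. Such likeness was not particular to members that fell. Among members that did not pass, the stretches of RNASEH2A were identical to another member's at 20 to 22 bases. That of POLA2 was so at 21 bases, and those of ORC1, GINS2 and POLE at 19. Those of ORC4, CDC6, RFC1 and the E2F2 match nearest the stop codon were identical to another member's at 14 to 16 bases. POLA1, CHEK1, CLSPN, LIG1 and MCM3 fell without holding the sequence.

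**Figure D4:**
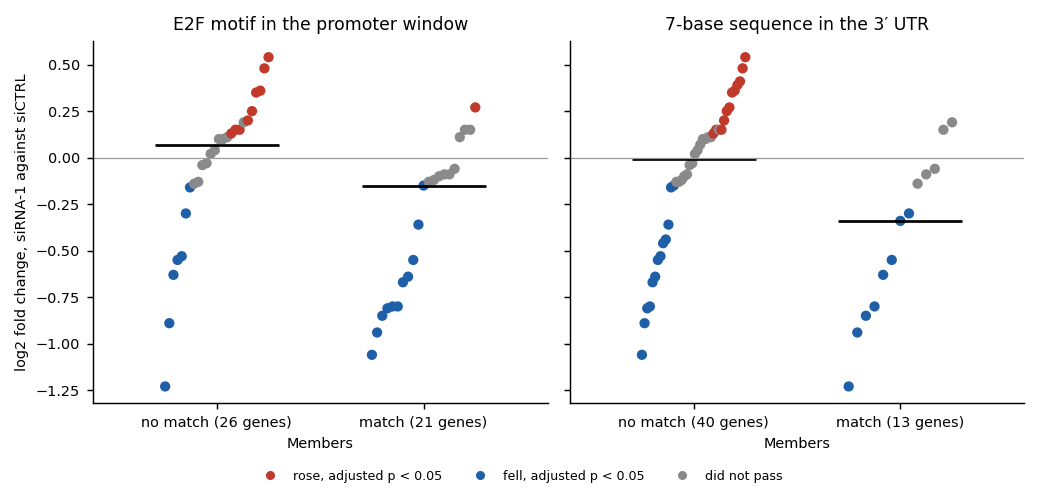
Log2 fold change of the members (points, coloured by call, black line at the median) without and with an E2F motif in the promoter window (left, 47 genes with a window) and without and with the 7-base sequence in a 3′ UTR (right, 53 genes). Of the members that rose, 1 carries the motif and 0 carry the 7-base sequence. That sequence was picked for being frequent in genes that fell, so its panel cannot test a link with direction.

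The wider pathway was described by 65 further replication genes, of which 64 were tested: 29 rose (45.3%), 12 fell (18.8%) and 23 did not pass, with a median log2 fold change of 0.08. Of all genes tested 31.5% rose and 31.0% fell, with a median of 0.01. The number that fell was 7 without siRNA-1 replicate 1 and 6 without siRNA-1 replicate 2, while 28 rose in either case. Among the 12 further initiation genes 8 rose and 0 fell. They included DBF4, the activating subunit of the kinase that fires licensed origins, which stood at 24.3, 27.3 and 28.3 CPM and then at 51.3, 51.3 and 56.2 CPM (log2 fold change 0.99, adjusted p = 7.1e-07). Its relative DBF4B rose 1.96-fold, to 25.6 ± 0.945 CPM in siRNA-1 cultures (SD, n = 3, log2 fold change 0.97, adjusted p = 7.1e-06, edgeR). The largest rise was that of CDC25A, a phosphatase that activates cyclin-dependent kinases, which rose 2.09-fold from 36.5 ± 5.55 to 76.4 ± 2.53 CPM. TFDP2, a dimer partner of E2F proteins, rose 1.86-fold. The largest fall was that of DSCC1, a subunit of an alternative clamp loader, at 21.1, 17.2 and 22.7 CPM and then at 5.66, 6.09 and 7.50 CPM (-1.67, adjusted p = 1.1e-06). RAD9A, a subunit of the checkpoint clamp (-0.73), RNASEH2C, a partner of RNASEH2A (-0.60), and DHODH, an enzyme of pyrimidine synthesis (-0.53), followed. Further nucleotide genes rose at 8 of 13 and fell at 3, and further checkpoint genes rose at 4 of 9 and fell at 2. Further fork genes rose at 3 of 12 and fell at 5 (median -0.14), further E2F and RB genes rose at 3 of 10 and fell at 2 (median -0.07), and chromatin assembly genes rose at 3 of 8 and fell at 0 (median -0.04). Of the 24 genes of G2 phase and mitosis, 15 rose (62.5%) and 3 fell (12.5%), with a median of 0.41, against the same 31.5% and 31.0% of all genes. The difference between these lists and the 53 members was not tested.

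**Figure D5:**
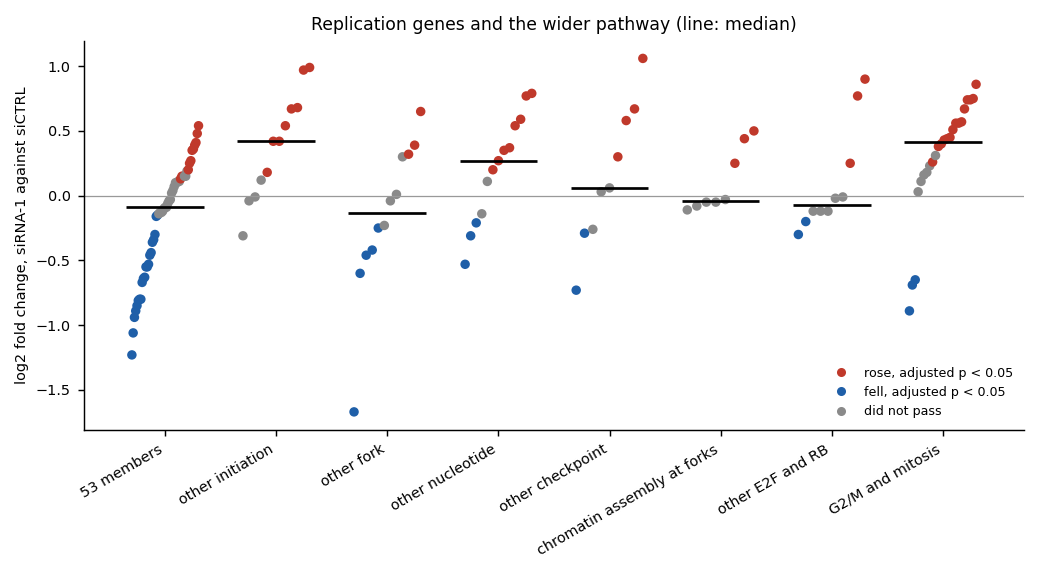
Log2 fold change of each tested gene (points, coloured by call) for the 53 members, the 6 lists of further replication genes and the genes of G2 phase and mitosis, with the median of each list as a black line. The members' median is -0.09, that of the further initiation genes is 0.42 and that of G2 phase and mitosis 0.41, and DSCC1 is the lowest point at -1.67.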

How the data were processed

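Total RNA of 6 MDA-MB-231 cultures was sequenced from NEBNext Ultra libraries, per the labels' protocols. The authors deposited 1 table of raw counts per Ensembl gene. The submitters' processing notes name Trimmomatic, STAR, HTSeq, kallisto and hg38. The annotation release and strand setting are not given in these sources, so reads of overlapping genes on opposite strands may not be separated.

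All 20042 identifiers had a symbol. edgeR 4.0.16 (R 4.3.3) was run with filterByExpr (minimum count 10, minimum total 15), TMM scaling and the two-sided quasi-likelihood F test on group alone, with Benjamini-Hochberg adjustment over 12440 genes. The SE is the absolute log2 fold change over the root of F. Totals of 12813706 to 15014434 counts set the precision, and floors cover counting error only. Levels per kilobase used the union of GENCODE 29 exons. By that annotation 25 members share exonic bases with another gene, 10 of them at least 10%. The steps were tested on simulated counts, where the share of false calls lay somewhat above the threshold. Calls just under it may therefore be less certain than the adjusted p states. Far fewer genes were changed in the simulation than the 62.5% called here, so its share of false calls cannot be carried over directly.

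The members and lists were chosen with earlier results of these data known. Values in every library are given for the 2 largest changes per role with groups apart and for CDC6, CDT1, MCM2, PCNA, RRM2, TYMS, CHEK1, POLA1 and E2F1, and the 4 largest rises and falls of the wider pathway are named. Library values of MCM5, MCM7 and POLE, the count ratios, the E2F motif counts and the 7-base sequence were added after values were seen. Marker lists of the cell line, blood, endothelium and fibroblasts, and the list of G2 phase and mitosis, served as context, and not every marker in them is reported here. Alternatives were DESeq2 1.42.0 (size factors, Wald test), limma-voom (limma 3.58.1), no scaling, other filters, a replicate block, each library left out, and a threshold of 0.01.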

Additional observations from a re-analysis of the deposited data

How the results depend on the processing

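The 3 counts kept within 1.5 times of their values under every alternative run: 25 to 35 replication genes changed (33 in the report), 33 to 46 genes of the wider pathway (41) and 6206 to 8635 of all genes (7772). Among the replication genes 8 to 15 rose and 17 to 22 fell, and in the wider pathway 28 to 30 rose and 5 to 16 fell (5 at a threshold of 0.01). With each library left out in turn the ranges were 26 to 35, 34 to 46 and 6848 to 8635. Of the 33 replication genes that changed, 25 (8 rises and 17 falls) passed under all of the alternatives and 0 changed sign, while 8 small changes were lost under some: PCNA, POLD1, POLD2, POLE2, RPA1, RRM1, TK1 and TIPIN. Of the 20 that did not pass, 7 passed under some alternative: ORC1, ORC3, MCM2, POLE, RNASEH2A, TYMS and E2F1. Without scaling beyond library size 15 members rose and 18 fell. All genes shifted the same way in that fit: 4248 of 12440 rose and 3574 fell, against 3921 and 3851 in the main fit. Same-numbered libraries did not deviate together (correlations 0.0669, -0.0782 and -0.0571 for replicates 1, 2 and 3), so no pairing by number was visible. With 3 libraries per group these values cannot exclude such a pairing. With the replicate number as a block 30 members (9 rises and 21 falls), 39 genes of the wider pathway and 7535 of all genes changed.

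Some members that did not pass turned sign. Their log2 fold changes were 0.0117 for RFC5 without scaling, and -0.0179 for PRIM1 and -0.00046 for WDHD1 among genes with a mean of at least 100 counts. With 1 library left out they ranged from -0.248 to 0.109 for POLA2, -0.193 to 0.0318 for GINS2, -0.0362 to 0.119 for MCM5, -0.0939 to 0.0117 for ORC5, -0.0773 to 0.0147 for RFC5, -0.0235 to 0.0561 for PRIM1 and -0.00126 to 0.161 for DUT. The cause was not tested. POLA2 had too few counts for the filter at a mean of 100. Its level of 4.33 ± 1.05 CPM in the controls (SD, n = 3) and its SE of 0.203 limit what could be seen.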
